A study of Homo sapiens with 2 samples.

Results

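The mitochondrial carrier family, SLC25, was examined in a peak list of the transcription factor RFX6 in hepatocellular carcinoma (HCC) cells. Members were chosen by symbol, as the protein-coding genes of the RefSeq gene table for GRCh38 whose symbol starts with SLC25A. This gave 48 genes among 20033 protein-coding genes, located on 19 chromosomes. The peaks came from chromatin immunoprecipitation and sequencing (ChIP-seq) of MHCC-97H cells, an established HCC line, which overexpressed RFX6 with an HA tag. The series holds 2 libraries of this line, namely 1 ChIP of HA-RFX6 and 1 input, which is sheared chromatin without precipitation. Only the ChIP library had a peak list here, and neither cells without the tagged factor nor replicates were examined. Read depth is unknown, so a gene without a peak may also have had too few reads. The list was reduced to 5019 distinct intervals, each with a score of the peak caller from 13 upwards, which was used only as a rank. All confidence intervals below are 95% Wilson intervals, which cover the counting of genes alone.

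SLC25 proteins are carriers of the inner mitochondrial membrane, with a few members in other membranes. They exchange nucleotides, phosphate, carboxylates, amino acids and cofactors between cytosol and matrix, and thereby connect glycolysis, the tricarboxylic acid cycle, the respiratory chain and the urea cycle in hepatocytes. RFX factors bind the X-box, an inverted repeat whose arms resemble GTTGCC.

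Of the 48 genes, 6 had an interval whose midpoint was within 1 kb of either gene end, namely *SLC25A5*, *SLC25A6*, *SLC25A10*, *SLC25A24*, *SLC25A32* and *SLC25A51*. A further 2 genes, *SLC25A45* and *SLC25A46*, had intervals only in the gene body, farther than 1 kb from its ends. The 8 genes together carried 9 intervals, and the remaining 40 genes had none.

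The promoters of 4 of these 8 genes are shown first. Each sequence is the 250 bases directly upstream of the RefSeq start (GRCh38.p14), read 5′ to 3′ on the strand of the gene. Capitals mark the motifs searched, which are spelled out further below except for the full X-box. *SLC25A51* (chr9:37904128-37904377, minus strand) and *SLC25A24* (chr1:108200344-108200593, minus strand) are shown because the interval reached into this stretch, over 247 and 50 of its bases. The other two stretches hold no base of an interval. *SLC25A46* (chr5:110738757-110739006, plus strand) is shown for its GTTGCC match, and *SLC25A45* (chr11:65382647-65382896, minus strand) as the promoter poor in CpG.
SLC25A51: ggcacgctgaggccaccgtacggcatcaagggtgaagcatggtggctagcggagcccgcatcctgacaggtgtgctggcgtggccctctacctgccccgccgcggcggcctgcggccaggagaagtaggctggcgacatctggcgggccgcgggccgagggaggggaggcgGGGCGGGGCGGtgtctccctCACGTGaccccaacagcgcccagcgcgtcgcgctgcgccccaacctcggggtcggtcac
SLC25A24: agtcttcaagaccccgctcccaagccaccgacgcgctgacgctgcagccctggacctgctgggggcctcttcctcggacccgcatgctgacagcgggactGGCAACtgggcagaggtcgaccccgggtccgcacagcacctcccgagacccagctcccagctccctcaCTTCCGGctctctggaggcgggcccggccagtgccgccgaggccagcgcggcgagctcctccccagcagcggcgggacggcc
SLC25A46: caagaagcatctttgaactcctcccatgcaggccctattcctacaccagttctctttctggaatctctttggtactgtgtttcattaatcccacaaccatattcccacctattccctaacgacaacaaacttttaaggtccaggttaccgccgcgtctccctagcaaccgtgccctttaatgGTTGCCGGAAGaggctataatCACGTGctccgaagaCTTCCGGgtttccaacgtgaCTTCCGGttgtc
SLC25A45: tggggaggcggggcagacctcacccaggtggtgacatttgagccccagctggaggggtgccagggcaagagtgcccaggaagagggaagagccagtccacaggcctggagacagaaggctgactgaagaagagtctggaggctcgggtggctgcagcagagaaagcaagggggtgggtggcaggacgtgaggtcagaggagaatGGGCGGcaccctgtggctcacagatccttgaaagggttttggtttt

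The first question was whether mitochondrial carriers had an interval at a gene end more or less often than other genes. The share was 12.5% (6 of 48, interval 5.86% to 24.7%), whereas it was 15.5% of all protein-coding genes (3099 of 20033). With gene bodies included, the shares were 16.7% (8 of 48, 8.70% to 29.6%) for the carriers and 19.5% for all protein-coding genes. In both counts, the share of all genes lay inside the interval of the carriers. Among the 338 other solute carrier genes, 49 (14.5%, 11.1% to 18.6%) had an interval at an end. For 77 mitochondrial ribosomal protein genes the number was 12 (15.6%, 9.15% to 25.3%), and for 87 genes of the respiratory chain and ATP synthase it was 16 (18.4%, 11.6% to 27.8%). These intervals all overlapped that of the SLC25A genes.

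**Figure D1:**
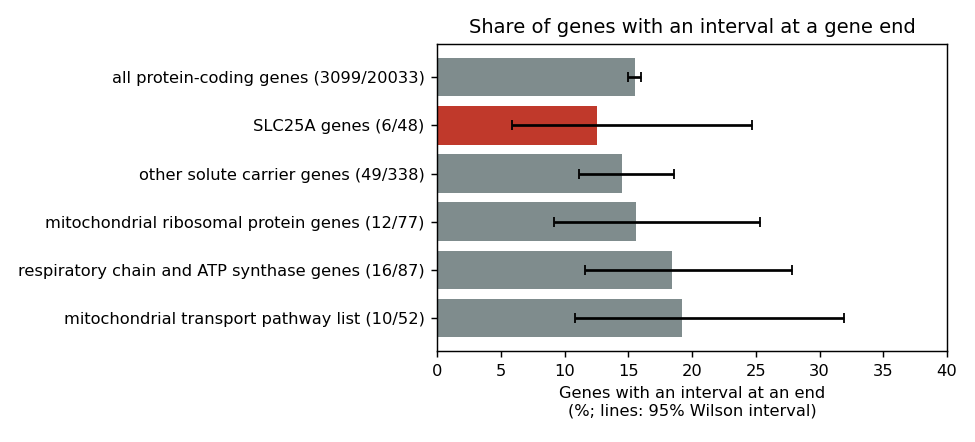
Share of genes (%, x axis) with an interval within 1 kb of a gene end, for all protein-coding genes and 5 lists (y axis, with counts in brackets). Bars are shares and lines are 95% Wilson intervals, and the line of the SLC25A genes (5.86% to 24.7%) spans the 15.5% of all genes.

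Among the 11 carriers of nucleotides and phosphate, 3 had an interval, all at a gene end. The Wilson interval of this share (9.75% to 56.6%) spanned the 15.5% of all genes. *SLC25A5* and *SLC25A6* encode the ADP/ATP carriers ANT2 and ANT3, which export ATP from the matrix in exchange for ADP. At *SLC25A5* (chromosome X, 119468444 to 119471396, plus strand), the interval ran from 119468903 to 119469147 and had a score of 27. Its midpoint lay 581 bp downstream of the start and 95 bp from the start of the antisense gene SLC25A5-AS1, which it overlapped. At *SLC25A6* (chromosome X, 1386152 to 1392113, minus strand), the interval ran from 1392424 to 1392639, with its midpoint 418 bp upstream of the start, and it overlapped the gene LOC124900597. Its score of 13 was the lowest in the list, which 177 of the 5019 intervals had. *SLC25A6* lies in the part of X that is shared with Y, so reads from it cannot be assigned to either chromosome.

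The other ADP/ATP carriers had no interval. The nearest interval to *SLC25A4*, which encodes the ANT1 isoform of heart and muscle, was 11974138 bp outside the gene. For *SLC25A31*, the testis isoform ANT4, this distance was 11402699 bp. Both genes lie on chromosome 4, where few genes of any kind had an interval at an end (4.94%). On chromosome X this share was lower still (2.95%, 25 of 848 genes), and *SLC25A5* and *SLC25A6* were 2 of these 25 genes.

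*SLC25A24*, which encodes a calcium-regulated carrier of ATP-Mg and phosphate, had the highest score of this group. The gene is on chromosome 1 (108134043 to 108200343, minus strand), and the interval from 108200145 to 108200393 spanned its start, from 50 bp upstream to 198 bp downstream. The score was 45, and 80.8% of all intervals scored lower. No other gene end was within 1 kb. Its paralogues *SLC25A23*, *SLC25A25* and *SLC25A41* had no interval, the nearest being 42471, 16465 and 32760 bp away. The phosphate carrier *SLC25A3*, which supplies phosphate for ATP synthesis, and the pyrimidine nucleotide carriers *SLC25A33* and *SLC25A36* had none either.

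Of the 4 carboxylate carriers, only the dicarboxylate carrier *SLC25A10*, which exchanges malate and succinate for phosphate, had an interval (4.56% to 69.9%, which also spans the share of all genes). It is on chromosome 17 (81712284 to 81721012, plus strand), and the interval from 81712343 to 81712564 began 59 bp downstream of the start. The score was 17, and only 6.81% of all intervals scored lower. The citrate carrier *SLC25A1*, which provides cytosolic citrate for lipid synthesis, the oxoglutarate carrier *SLC25A11* of the malate-aspartate shuttle, and the oxodicarboxylate carrier *SLC25A21* had none. The nearest intervals were 539253, 28071 and 851213 bp outside these genes.

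Of the 9 amino acid carriers, 0 had an interval, and the Wilson interval for so small a group reached 29.9%. It thus spanned the 19.5% of all protein-coding genes with an interval at an end or in the body. The group includes the aspartate/glutamate carriers *SLC25A12* and *SLC25A13* of the malate-aspartate shuttle, of which *SLC25A13* (citrin) is the liver form. The ornithine carrier *SLC25A15*, which serves the urea cycle, and the glutamate carrier *SLC25A22* belong here too. The interval nearest to *SLC25A22* was 11114 bp outside the gene, with a score of 56. The nearest one to *SLC25A15* was 8631957 bp away. For *SLC25A12* this distance was 191047 bp and for *SLC25A13* it was 1464160 bp. The glycine carrier *SLC25A38*, which serves haem synthesis, had its nearest interval 202399 bp away. It is 1 of 4 SLC25A genes on chromosome 3, of which 0 had an interval. Of all protein-coding genes on this chromosome, 21.7% had one at an end, and from only 4 genes no depletion can be read. The branched-chain amino acid carrier *SLC25A44* and the basic amino acid carrier *SLC25A29* had their nearest interval 63669 and 38165 bp away. The remaining members of the group were the ornithine carrier *SLC25A2* and the glutamate carrier *SLC25A18*, with distances of 314656 and 2126994 bp.

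Among the 11 cofactor and carnitine carriers, 2 had an interval at an end (5.14% to 47.7%, again spanning the share of all genes). *SLC25A51* encodes the carrier that brings NAD+ into mitochondria. It is on chromosome 9 (37877575 to 37904127, minus strand), and the interval from 37904030 to 37904374 spanned its start, from 247 bp upstream to 97 bp downstream. The score was 37, above that of 66.4% of all intervals, and the pseudogene PAICSP1 was overlapped as well. Its close relative *SLC25A52*, also an NAD+ carrier, had its nearest interval 3280602 bp away.

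*SLC25A32*, a carrier for folate and FAD, had the highest score of the family, 48, above 84.7% of all intervals. The gene is on chromosome 8 (103398638 to 103415107), and the interval from 103415207 to 103415479 had its midpoint 236 bp outside the high-coordinate end. The same midpoint was only 43 bp from an end of *DCAF13*, so by nearest gene end the interval belonged to *DCAF13* and not to the carrier. The carnitine/acylcarnitine carrier *SLC25A20*, which takes fatty acids to oxidation, had no interval in the gene or within 1 kb. Its nearest interval was 9554 bp outside, which was the smallest distance among the 40 genes without one. The glutathione carriers *SLC25A39* and *SLC25A40* and the coenzyme A carriers *SLC25A16* and *SLC25A42* had none. The same held for *SLC25A26*, the carrier of S-adenosylmethionine, and for the peroxisomal *SLC25A17*.

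Neither mitoferrin, *SLC25A28* or *SLC25A37*, which import iron for haem and iron-sulphur clusters, had an interval, and the 3 uncoupling protein-like carriers *SLC25A14*, *SLC25A27* and *SLC25A30* had none. The Wilson intervals reached 65.8% for the mitoferrins and 56.1% for the uncoupling protein-like carriers, so both spanned the share of all genes. Among the 8 less characterised members, 2 had intervals in the gene body (7.15% to 59.1%, compared with 19.5% of all genes at an end or in the body). *SLC25A46* encodes a protein of the outer mitochondrial membrane that takes part in mitochondrial dynamics. It is on chromosome 5 (110738145 to 110765157, plus strand), and the interval from 110739233 to 110739497 had a score of 45. Its midpoint was 1220 bp inside the outermost gene end but 358 bp downstream of the RefSeq start, and it was 411 bp from an end of *TMEM232*. At *SLC25A45* (chromosome 11, 65375192 to 65383701, minus strand), there were 2 intervals. The one from 65382165 to 65382510 had a score of 32 and its midpoint 309 bp downstream of the start. The other (65380610 to 65380842) scored only 17, and its midpoint was 1920 bp downstream. Both also overlapped *FRMD8*. The other members of this group, *SLC25A34*, *SLC25A35*, *SLC25A43*, *SLC25A47*, *SLC25A48* and *SLC25A53*, had no interval. Exons were not examined, so the intervals are placed only by their distance from starts and gene ends.

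**Figure D2:**
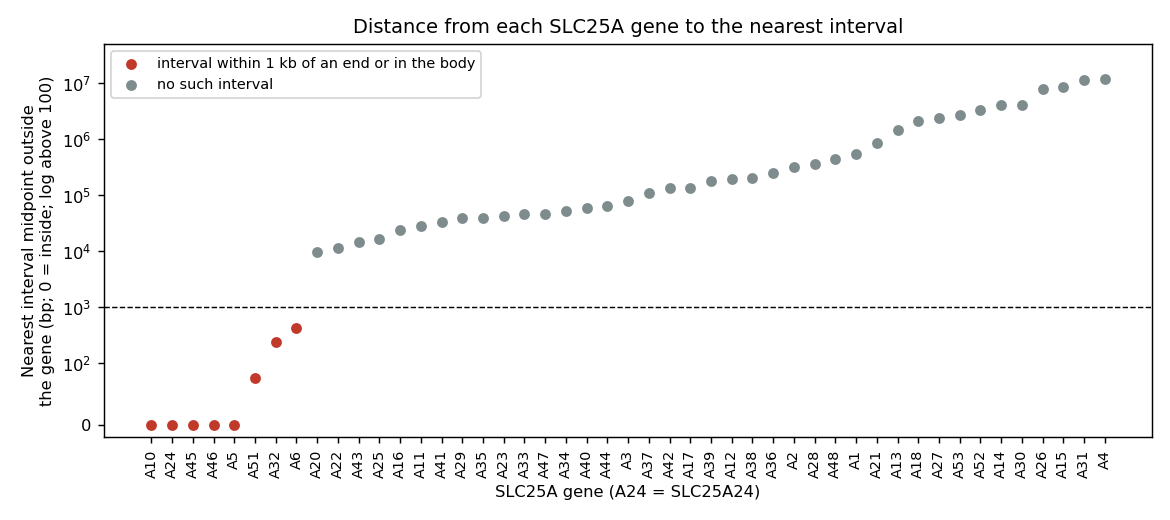
Distance in bp from each of 47 SLC25A genes (x axis) to the nearest interval midpoint outside the gene (y axis, logarithmic above 100, with 0 for a midpoint inside). Red points are the 8 genes with an interval and grey points 39 without, all of which are at 9554 bp or more, above the dashed line at 1 kb.

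The groups with and without an interval are defined by distance, so only the distances beyond the window are described. Of the 40 genes without one, 0 had an interval within 5 kb, 5 had one within 25 kb and 23 had none within 100 kb. The median distance was 155406 bp. Few genes of any kind were just outside the window, as the share of all protein-coding genes with an interval near an end was 15.5% for 1 kb and 19.8% for 5 kb. The 5 genes were *SLC25A20*, *SLC25A22*, *SLC25A43*, *SLC25A25* and *SLC25A16*. For *SLC25A43*, the nearest interval, 14547 bp away, was the one counted at its neighbour *SLC25A5*.

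The position relative to the start was examined next, since the promoter table gives a start and a strand for 40 of the 48 genes. No start was used for the other 8, *SLC25A32* among them. The midpoint was at most 1 kb from the start for 7 of the 40 (17.5%, 8.75% to 31.9%), compared with 15.3% of the 15841 protein-coding genes with a start. The 7 were *SLC25A5*, *SLC25A6*, *SLC25A10*, *SLC25A24*, *SLC25A45*, *SLC25A46* and *SLC25A51*. The body interval of *SLC25A46* and the higher-scored body interval of *SLC25A45* were thus at a RefSeq start, inside a gene model that begins farther out, whereas the other interval of *SLC25A45* was not. The intervals spanned the start itself at *SLC25A24* and *SLC25A51*. At *SLC25A6* the interval lay upstream, and at the other 4 genes it lay downstream. Over all protein-coding genes, 58.8% of 2781 pairs of a start and an interval had the midpoint downstream.

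**Figure D3:**
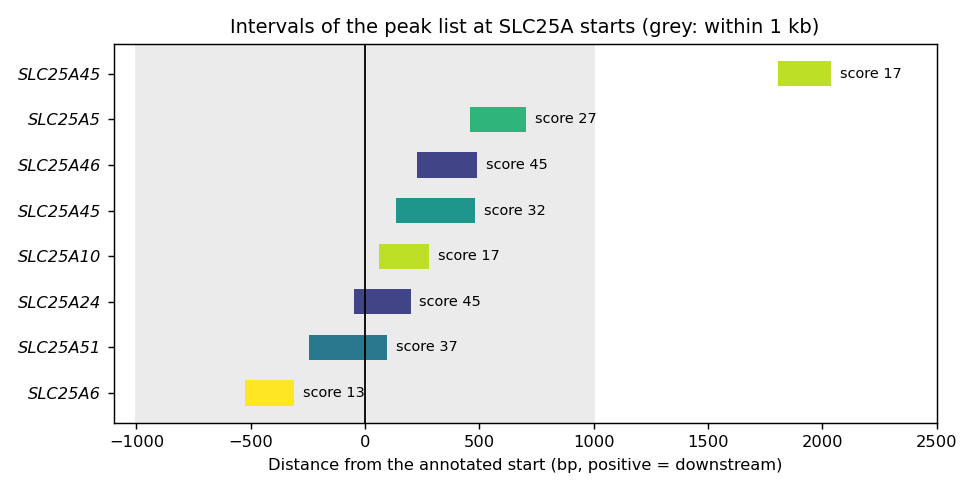
Position in bp of the 8 intervals at SLC25A genes with a RefSeq start (x axis, positive values downstream in the direction of transcription), 1 bar per interval with its score and the gene on the y axis. All but 1 of the bars have their midpoint in the grey zone within 1 kb of the start, and the exception is the interval of score 17 at *SLC25A45*.

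The scores of the 9 intervals ranged from 13 to 48, with a median of 32. The median was 30 for all intervals and 32 for the 3053 intervals at protein-coding gene ends, where the highest score was 126. *SLC25A32*, *SLC25A24*, *SLC25A46*, *SLC25A51* and *SLC25A45* had an interval scored 30 or more, while those of *SLC25A5*, *SLC25A10* and *SLC25A6* scored lower. With a score of at least 20, 4 SLC25A genes had an interval at a gene end, compared with 13.8% of all genes, and *SLC25A6* and *SLC25A10* dropped out. With at least 30, the number was 3, compared with 9.50% of all genes, and only *SLC25A24*, *SLC25A32* and *SLC25A51* were left. The widths, from 216 to 346 bp, were close to the median of 272 bp in the list.

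**Figure D4:**
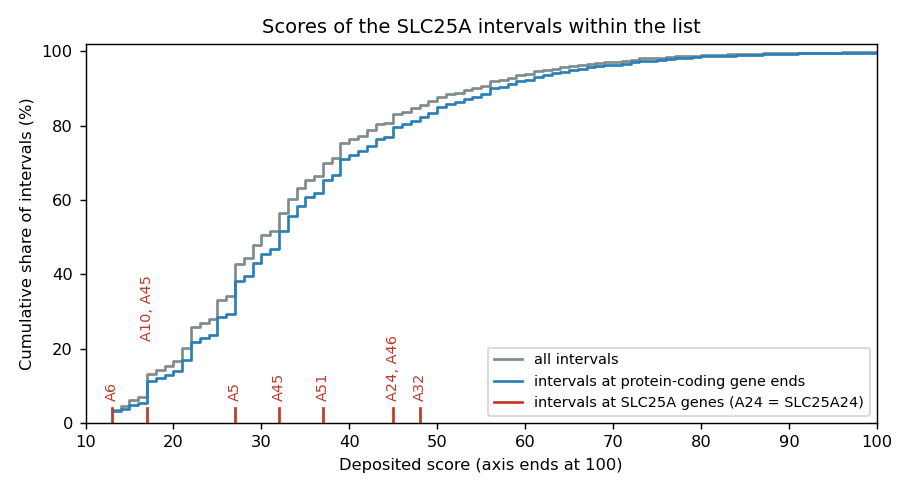
Cumulative share of intervals (%, y axis) by deposited score (x axis, shown up to 100) for all intervals and for those at protein-coding gene ends. Red marks are the 9 intervals at SLC25A genes, which lie between 13 and 48.

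The base composition of the promoters was compared, as it was not used in choosing the genes. CpG-rich was defined as a ratio of observed to expected CpG of at least 0.6 in the 250 bases upstream of the start. Of the 40 SLC25A promoters, 31 (77.5%) were CpG-rich, compared with 63.4% of all promoters. Of these 31 genes, 6 (19.4%, 9.19% to 36.3%) had an interval there, at most 1 kb from the start, compared with 21.9% of the 10044 CpG-rich genes in all. The exception among the 7 genes with an interval was *SLC25A45*, whose ratio was 0.194. Of the 9 SLC25A genes without a CpG-rich promoter it was thus the only 1 with an interval (11.1%, 1.99% to 43.5%), compared with 3.86% of 5797 such genes in all. The median ratio was 0.832 in these 7 and 0.853 in the 33 others. The ratio was highest at *SLC25A11* (1.34) and *SLC25A40* (1.28), which had no interval.

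**Figure D5:**
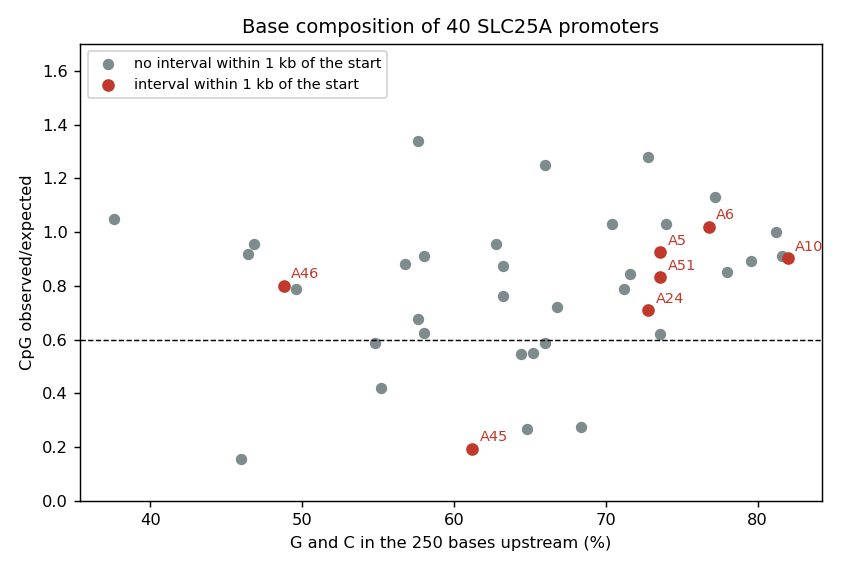
Observed to expected CpG ratio (y axis) against the percentage of G and C (x axis) in the 250 bases upstream of the start, 1 point per SLC25A gene. The 7 genes with an interval at the start (red) lie among the 33 without (grey), and the dashed line is at 0.6.

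Motifs were then searched in the same 250 bases on both strands. The pattern used for the full X-box was found in 0 of the 40 SLC25A promoters and in 19 of the 15841 promoters (0.120%). Its letters are not spelled out here, and X-boxes that differ from it were not counted. These counts therefore do not show that X-boxes are absent. GTTGCC was found in 6 SLC25A promoters (15.0%, compared with 10.4% of all). These were *SLC25A24* and *SLC25A46*, which had an interval at the start, and *SLC25A14*, *SLC25A15*, *SLC25A21* and *SLC25A27*, which had none. In the sequences above, the match began 150 bases upstream of the start at *SLC25A24*, outside the interval, and 68 bases upstream at *SLC25A46*, also outside it. Among all genes, GTTGCC was present in 10.4% of promoters with an interval at the start and in 10.4% of those without. The search covered only bases upstream of the start, whereas 58.8% of midpoints near a start lay downstream. Of the SLC25A promoters with an interval at the start, only those of *SLC25A24* and *SLC25A51* held bases of it. The motif shares therefore do not describe the sequence inside the intervals.

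Motifs of other factors were counted in the same way. GGGCGG, the box bound by SP and KLF factors, was found in 28 SLC25A promoters (70.0%, compared with 56.0% of all), and CCAAT in 18 (45.0%, compared with 34.5%). CCGGAAG, bound by ETS factors, was found in 8 (20%, compared with 11.8%), and the E-box CACGTG in 7 (17.5%, compared with 7.84%). The NRF1 core GCGCATGC was found in 0 SLC25A promoters and in 3.70% of all. Among the 7 SLC25A promoters with an interval at the start, GGGCGG was found in 5, CCGGAAG and CACGTG in 2 each, and CCAAT in 1. Among the 33 without, GGGCGG was found in 23, CCGGAAG in 6, CACGTG in 5 and CCAAT in 17. Over all genes, GGGCGG was in 76.8% of promoters with an interval at the start and in 52.3% of those without. The corresponding shares were 18.4% and 10.6% for CCGGAAG, 9.91% and 7.47% for CACGTG, and 35.6% and 34.3% for CCAAT. From only 7 promoters, no difference within the family can be read. The family also had more CpG-rich promoters than all genes (77.5%, compared with 63.4%), and the differences in motif shares were not tested. At *SLC25A51*, 2 GGGCGG matches that share a base began 79 and 74 bases upstream of the start, and CACGTG began 59 bases upstream, all inside the interval. At *SLC25A46*, GTTGCC overlapped a CCGGAAG match, and a further 2 CCGGAAG matches began 32 and 12 bases upstream. A match describes the reference letters and not binding.

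Finally, 52 other genes of mitochondrial transport, with the enzymes that the carriers serve, were looked up. Of these, 10 (19.2%, 10.8% to 31.9%) had an interval at a gene end, and the 15.5% of all protein-coding genes lay inside this interval. The genes are therefore named as a description. Family members with other symbols had none, namely the uncoupling proteins *UCP1*, *UCP2* and *UCP3* and the carrier-like outer membrane proteins *MTCH1* and *MTCH2*. The mitochondrial pyruvate carrier, which imports the product of glycolysis, consists of *MPC1* and *MPC2*, and both had an interval at an end. The *MPC1* interval (chromosome 6, 166382870 to 166383157, score 17) had its midpoint 73 bp upstream of the start, and the gene MPC1-DT also had an end within 1 kb. Only 6.81% of all intervals scored lower than this one. The *MPC2* interval (chromosome 1, 167936075 to 167936834) had a highest score of 54 and also overlapped *DCAF6*. Its midpoint was 618 bp inside the gene end and 458 bp upstream of the *MPC2* start. The start of *DCAF6* was closer, at 229 bp, so the interval cannot be assigned to *MPC2* alone. Of the sideroflexins, which carry serine and other substrates, *SFXN2* and *SFXN5* had intervals at an end. The higher-scored interval of *SFXN2* (49) had its midpoint 26 bp downstream of the start and 265 bp from the start of *ARL3*. The lower-scored one (30) was 518 bp outside the other end but only 62 bp from the start of *WBP1L*, which it overlapped. The *SFXN5* interval (score 39) had its midpoint 268 bp inside the gene end but not within 1 kb of the RefSeq start.

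The other genes with an interval at an end were the outer membrane pore *VDAC1*, the inner membrane transporter *ABCB10* and the shuttle enzymes *GOT2*, *CS* and *CRAT*, together with *ASS1* of the urea cycle. The end interval of *VDAC1* (score 33) also overlapped *TCF7*, whose start was 802 bp from the midpoint. *VDAC1* had another interval in its body, which scored higher (42), but the same coordinates were also listed with a score of 18. Neither interval had its midpoint within 1 kb of the RefSeq start of *VDAC1*. *ASS1* likewise had an interval at its end (29) and a higher-scored one in its body (37). The interval at *CRAT* (score 22) also overlapped *PTPA*. Its midpoint was 384 bp outside the end of *CRAT* but 227 bp from an end of *PTPA*, which was thus the nearer gene end. The interval at *ABCB10* (chromosome 1, 229558523 to 229559057) had a score of 65, the highest among all SLC25A and pathway genes, with its midpoint 83 bp upstream of the start. At *GOT2*, the mitochondrial enzyme of the malate-aspartate shuttle, the score was 20, and at *CS*, citrate synthase, it was 38. *ACLY*, which cleaves exported citrate, and *CPT1A*, the entry enzyme of the carnitine shuttle, had an interval in the gene body only. At *ACLY* (score 17), its midpoint was 821 bp downstream of the RefSeq start and thus within 1 kb of it. At *CPT1A* (score 27), the midpoint was 2330 bp downstream of the start. Of the 8 genes for calcium uptake and exchange and the 10 genes for carrier import, 0 had an interval. Of all protein-coding genes, 19.5% had one at an end or in the body, and no depletion can be read from groups this small.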

How the data were processed

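ChIP-seq was done by the authors in HA-RFX6-overexpressing MHCC-97H cells. The deposited file is a list of MACS2 (2.1.0.2) peaks, whose last column is a whole-number score. What this score stands for, the aligner and the control are not given in the sources used here. The submitters' processing notes name GRCh37. However, 49.6% of the 5019 intervals had their midpoint within 1 kb of a GRCh38 start, compared with 2.95% and 2.93% after a move of 20 kb down or up, so GRCh38 was used.

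Of 6214 lines, 1 had its coordinates written with digit separators and was mended. Lines with identical coordinates were counted once with their highest score (5022 intervals), and 5019 on chromosomes 1 to 22 and X were kept. Coordinates are 1-based. Genes came from RefSeq tables of GRCh38.p14, including a promoter table that gives the start and strand of 40 SLC25A genes. Role groups and comparison lists came from general knowledge. Members and lists were chosen with earlier results of these data known, and by rule every SLC25A gene with an interval was named with its values, those without by role group, and pathway genes where they had an interval. A single gene, counted in the totals, is not reported here by name. With 1 library, no test was run. Counting was tested on simulated intervals. Python 3.11.15, numpy 2.4.6, pandas 2.3.3 and matplotlib 3.10.9 were used.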

Additional observations from a re-analysis of the deposited data

How the results depend on the processing

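The share of all protein-coding genes is given in brackets. The count of SLC25A genes with an interval at a gene end (6) was 5 in a window of 500 bp (13.3%). It was 8 in windows of 2 kb (17.2%) and 5 kb (19.8%), and 6 with any overlap (15.9%) and after merging (15.3%). Assigned to the nearest gene alone, the count was 5 (13.3%). Scores from 20 upwards gave 4 (13.8%), and scores from 30 upwards gave 3 (9.5%). After a move of the intervals by 20 kb it was 3 (down, *SLC25A20*, *SLC25A22* and *SLC25A25*) and 0 (up), while 2.01% and 2.05% of all genes had an interval at an end. The count with gene bodies included (8) was 5 with scores from 30 upwards (12%). It was 6 with scores from 20 upwards (17.3%) and for the nearest gene alone (16.7%). The count at the annotated start (7) was 4 with scores from 30 upwards (9.3% of all genes with a start). It was 5 with scores from 20 upwards (13.6%) or for either gene end (15.9%), and 6 within 500 bp (13.7%). Leaving out the part of X shared with Y, an alternative chosen after seeing the data, took *SLC25A6* away and left 5 genes at an end and 7 in all. By construction, fewer intervals enter at a higher score.

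No paired analysis was possible because only a single ChIP library was examined, and leaving out a replicate was not possible either. Depth is unknown, and genes without an interval are not shown to be unbound.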

Other observations

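Many SLC25A genes, and the ADP/ATP carriers in particular, have processed pseudogenes, and how multiply mapped reads were treated is not given in the sources used here. Of 43 SLC25A pseudogenes in the gene table, 0 had an interval in the body or at either end. The share of other pseudogenes was not counted, so this number does not show how such reads affected the list.

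Of the 12 sets of paralogous carriers examined, 9 had no interval at any member, and 3 had an interval at some members and not at others. These were the ADP/ATP carriers (2 of 4), the ATP-Mg/phosphate carriers (1 of 4) and the NAD+ carriers (1 of 2). Of all protein-coding genes, only 19.5% had an interval at an end or in the body. From sets this small, no difference between paralogues can be read.

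The SLC25A genes with an interval were shorter, with a median of 12599 bp, than the family (26783 bp) and all protein-coding genes (24130 bp). The difference was not tested.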
